A study of Homo sapiens with 14 samples.

Results

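The senescence-associated secretory factors IL6, CXCL8, IL1A, IL1B, CXCL1, CXCL2, CXCL3, CCL2, LIF and CXCL12 were followed one by one in WI-38 cells, a diploid strain of fibroblasts from human lung. They were chosen by gene symbol, and 10 of 10 had a row in the table, 1 row each, among 18377 genes with a row of their own. Expression was measured on 14 Affymetrix gene-level arrays, 2 per group. The groups were primary cells at passage 19 (written primary), cells immortalized with hTERT and lettered A at passages 39, 50, 58, 67 and 95 (A39 to A95), and hTERT cells lettered B at passage 96 (B96). All groups share the WI-38 background and weekly passaging, and every group other than primary carries hTERT, the catalytic subunit of telomerase. The sources used here do not say what the letters mean, how hTERT was driven or whether the lines were clonal. Values are the authors' log2 values, in which 1 unit is a doubling.

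Fibroblasts that stop dividing for good release a mixture of cytokines, chemokines and proteases, the senescence-associated secretory phenotype. Interleukin-1 alpha at the cell surface is an early trigger, and through NF-kB and C/EBP beta it drives interleukin-6 (IL6), interleukin-8 (CXCL8) and the CXCL1 to CXCL3 chemokines, which draw neutrophils. CDKN2A encodes p16, an inhibitor of the cell cycle kinases CDK4 and CDK6 that accumulates in senescence, and MKI67 encodes Ki-67, a protein of cycling cells. The secretory program can be present or absent in cells with high p16, and the members are therefore set against both genes below.

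Arrays did not pair as their labels do: 0 of 14 were closest to the array of the same label. Instead there were 5 mutual closest pairs, each made of the second array of one label and the first array of another. They joined primary to A39, A39 to A50, A50 to A58, A58 to A67, and A95 to B96. TERT read 7.07 in primary replicate 1 and 11.70 in primary replicate 2, against 10.67 to 12.18 in the 12 arrays labelled hTERT, so primary replicate 2 had TERT at the level of hTERT cells. The labels used here do not settle whether they are displaced by 1 array. If they were, each labelled mean, contrast and passage trend below would mix cultures, and all of them are given as labelled. Fibroblast markers were high on all 14 arrays, with a mean over 12 genes of 11.52 to 12.23. The means of the blood, endothelial and epithelial lists stayed between 6.32 and 7.43, and 8 of 10, 4 of 6 and 5 of 7 of their genes never exceeded a value of 8. Single markers moved more than these means. The endothelial gene PECAM1 read 8.44 and 7.83 in A95 replicate 2 and B96 replicate 1, against 6.17 to 7.04 on the other 12 arrays, and TEK 6.77 and 6.79 there, against 9.18 to 10.76. The epithelial keratin KRT19 read 7.93 to 9.11 on both primary arrays, both A39 arrays, A50 replicate 1 and B96 replicate 2, and 6.71 to 7.08 elsewhere. Their part in the results below was not tested. In bulk RNA, fewer cells that express a gene and less RNA per cell cannot be told apart.

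The members fell into a few that moved by several log2 units and a larger set that hardly moved. Over the 14 arrays the range was 4.89 for IL6, 3.96 for CXCL12, 3.18 for CCL2, 2.18 for CXCL8 and 1.86 for LIF. It was 0.61 to 0.86 for CXCL1, CXCL2, CXCL3, IL1A and IL1B. A range of at least 2 log2 was found in 4 of 10 members, against 5.43% of all 18377 genes. The median range was 1.36 for the members and 0.79 for all genes. The members were chosen with earlier results of these data known, so these shares describe them and support nothing.

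**Figure D1:**
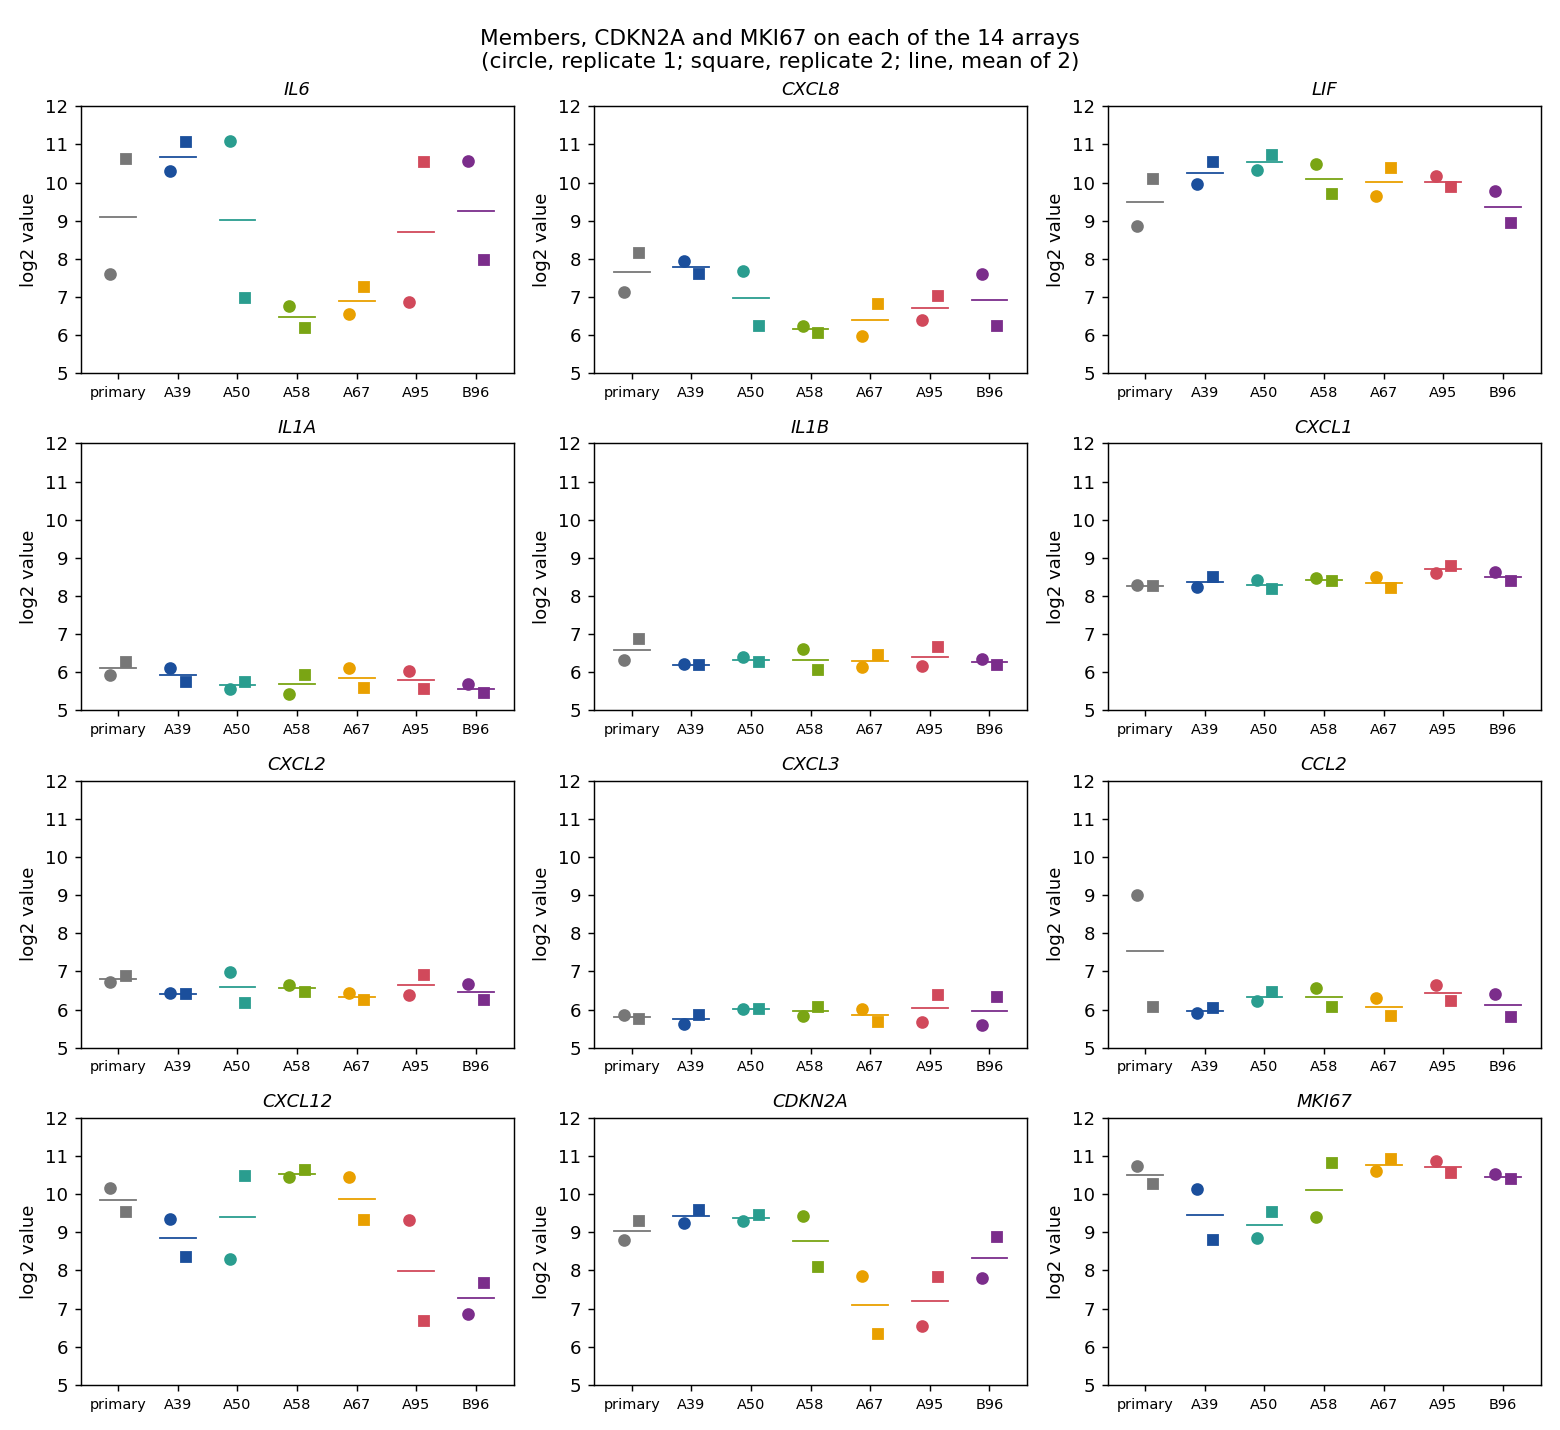
Log2 value (y axis) of the 10 members, CDKN2A and MKI67 in each labelled group (x axis, primary then rising passage), with a circle for replicate 1, a square for replicate 2 and a line for their mean. IL6 lies between 10.29 and 11.08 on 6 arrays and between 6.19 and 7.96 on the other 8, CCL2 is at 8.99 on 1 array, and the CXCL1 to CXCL3 and IL1 rows are nearly flat.

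The promoters of IL6 and CXCL8, which had the widest ranges among the members with an NF-kB core in the RefSeq windows, are shown beside those of CXCL1, CXCL2 and CXCL3, which carry the same NF-kB core and hardly varied. The rows of CXCL2 and CXCL3 may lie near background, so their small ranges are uncertain. Each sequence is the 150 bases just before the annotated start site, from RefSeq on GRCh38.p14, written 5′ to 3′ on the gene's strand. Capitals mark matches to the NF-kB core GGANNNTCC and, in CXCL8, to the AP-1 motif TGANTCA, both searched on both strands, which are the same for these palindromic patterns. The 2 patterns did not overlap in these windows. The windows are chr7:22727050-22727199 on the plus strand for IL6, chr4:73740419-73740568 plus for CXCL8, chr4:73869243-73869392 plus for CXCL1, chr4:74099196-74099345 minus for CXCL2 and chr4:74038690-74038839 minus for CXCL3.
IL6: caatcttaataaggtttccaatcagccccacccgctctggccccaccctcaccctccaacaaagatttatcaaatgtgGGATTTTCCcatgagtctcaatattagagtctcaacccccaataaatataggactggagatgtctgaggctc
CXCL8: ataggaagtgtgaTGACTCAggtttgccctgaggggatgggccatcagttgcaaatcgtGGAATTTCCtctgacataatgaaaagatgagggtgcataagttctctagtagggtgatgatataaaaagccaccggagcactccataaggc
CXCL1: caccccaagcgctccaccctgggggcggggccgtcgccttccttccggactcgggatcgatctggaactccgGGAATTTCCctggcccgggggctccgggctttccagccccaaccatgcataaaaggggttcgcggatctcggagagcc
CXCL2: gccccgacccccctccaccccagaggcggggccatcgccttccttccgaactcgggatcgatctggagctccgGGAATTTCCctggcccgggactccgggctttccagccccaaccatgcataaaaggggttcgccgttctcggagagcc
CXCL3: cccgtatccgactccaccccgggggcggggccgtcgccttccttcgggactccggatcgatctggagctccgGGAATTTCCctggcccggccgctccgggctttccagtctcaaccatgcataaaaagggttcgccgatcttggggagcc

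In 5 of the 8 members with a promoter window in the RefSeq table, 250 bases before to 50 after the start, the NF-kB core was found. Its first base lay at -72 in IL6, -91 in CXCL8, -78 in CXCL1, -77 in CXCL2 and -78 in CXCL3, with -1 the base just before the start. The letters GGANNNTCC occur in 9.32% of all 35116 promoter windows of this length, and TGANTCA in 7.71%. TGANTCA was found in 2 members, CXCL8 and IL1A. IL1A, IL1B and CXCL12 had no NF-kB core in this window, and CCL2 and LIF had no window in the table. The 150 bases of CXCL1 were 88.7% identical to those of CXCL2 and 88.1% to those of CXCL3, against 45.1% to those of CXCL8. A match is a stretch of letters and not a measured binding site. Because these 3 chemokine genes are near copies, their rows could share signal on the array and are uncertain as separate readings.

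**Figure D2:**
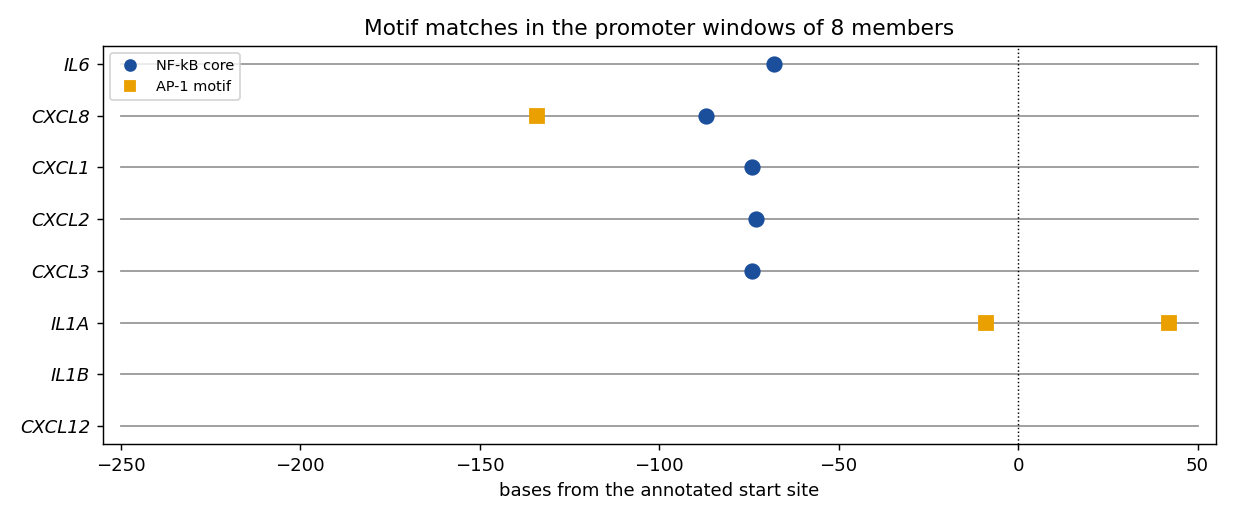
Distance from the annotated start site in bases (x axis, dotted line at the start) of NF-kB core matches (circles) and AP-1 matches (squares) in the 300-base windows of 8 members (rows), the first listed window being drawn for IL1A. IL6 and the 4 neutrophil chemokine genes CXCL8, CXCL1, CXCL2 and CXCL3 each hold 1 NF-kB core between -91 and -64.

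IL6, the interleukin that is a widely used marker of the secretory program, took 1 of 2 separate levels. It read 7.59 and 10.61 in the primary pair, 10.29 and 11.06 at A39, 11.08 and 6.97 at A50, 6.77 and 6.19 at A58, 6.55 and 7.25 at A67, 6.87 and 10.54 at A95, and 10.56 and 7.96 at B96 (replicate 1 first). No array lay between 7.96 and 10.29. High IL6 was thus found on 6 arrays, primary replicate 2, both A39 arrays, A50 replicate 1, A95 replicate 2 and B96 replicate 1. A gap of at least 2 log2 between neighbouring values occurs in 0.359% of all genes, and 42 genes have a larger one than IL6.

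The level of IL6 divided arrays that share a label and not arrays that resemble each other. In 4 of the 7 labelled pairs 1 array was high and the other low, with differences of 3.02 in primary, 4.11 in A50, 3.67 in A95 and 2.60 in B96. Within the 5 closest pairs IL6 differed by 0.02 to 0.36. The same held in part for CXCL12, with differences of up to 2.64 within labels and of 0.03 to 0.19 within closest pairs. For LIF the ranges were 0.29 to 1.23 and 0.05 to 0.24. For CXCL1 they were 0.01 to 0.28 within labels and 0.04 to 0.28 within closest pairs, so that this gene did not separate the pairs. Closest pairs were defined from all rows, the members' rows among them, and these differences are given with no test.

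**Figure D3:**
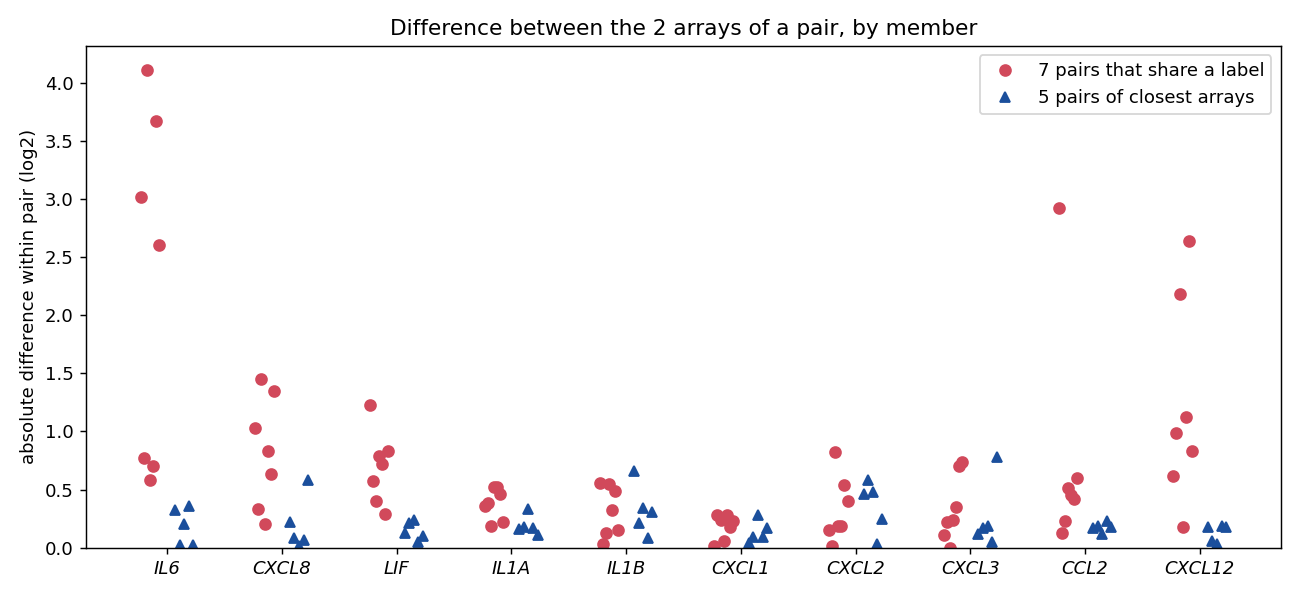
Absolute log2 difference between the 2 arrays of a pair (y axis) for each member (x axis), for the 7 pairs that share a label (circles) and the 5 pairs of arrays that are each other's closest (triangles). IL6 differs by 0.58 to 4.11 within labels and by no more than 0.36 within closest pairs, and CXCL1, CXCL2, CXCL3, IL1A and IL1B differ by no more than 0.82 in both.

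CXCL8, the chemokine interleukin-8, varied in the same sense over a smaller range. It read 7.13 and 8.16 in the primary pair, 7.94 and 7.61 at A39, 7.69 and 6.24 at A50, 6.25 and 6.05 at A58, 5.98 and 6.81 at A67, 6.39 and 7.02 at A95, and 7.60 and 6.25 at B96. It lay between 7.02 and 8.16 on the 6 arrays with high IL6 and between 5.98 and 7.13 on the other 8, and these ranges overlap only through A95 replicate 2 at 7.02 and primary replicate 1 at 7.13. Because IL6 has separate levels, no correlation of IL6 with another member over all arrays was tested. The slopes and correlations of IL6 on CDKN2A and MKI67 given below do span both levels, and carry that limit. Within the 6 high arrays Pearson's r of IL6 and CXCL8 was -0.09 and Spearman's rho 0.14 (exact permutation p = 0.906 and 0.803). Within the 8 low arrays r was 0.58 and rho 0.68 (exact permutation p = 0.129 and 0.0708, adjusted 0.345 and 0.283 over 8 such relations), and r was 0.97 without the 2 arrays farthest from the median of IL6. Neither passed the threshold.

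LIF, a cytokine of the interleukin-6 family, was lowest at both ends. It read 8.87 and 10.10 in the primary pair, 9.97 and 10.54 at A39, 10.33 and 10.73 at A50, 10.49 and 9.70 at A58, 9.65 and 10.37 at A67, 10.16 and 9.87 at A95, and 9.77 and 8.94 at B96. Primary replicate 1 and B96 replicate 2 stood apart at 8.87 and 8.94, and the other 12 arrays lay between 9.65 and 10.73. LIF was therefore high on arrays with high IL6 and on arrays with low IL6.

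IL1A and IL1B, the interleukin-1 cytokines that start the program, stayed flat. IL1A ran from 5.42 in A58 replicate 1 to 6.28 in primary replicate 2, with a median difference of 0.38 within labels. IL1B ran from 6.05 in A58 replicate 2 to 6.87 in primary replicate 2, with a median difference of 0.32. Neither range separated the arrays with high IL6, which held values of 5.56 to 6.28 for IL1A and of 6.18 to 6.87 for IL1B. No detection calls were used, so these rows may lie near background, where a change could not be seen.

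The CXCR2 ligands CXCL1, CXCL2 and CXCL3 were flat as well. CXCL1 ran from 8.18 in A50 replicate 2 to 8.79 in A95 replicate 2, CXCL2 from 6.17 in A50 replicate 2 to 6.99 in A50 replicate 1, and CXCL3 from 5.60 in B96 replicate 1 to 6.38 in A95 replicate 2. CXCL1 moved with the median of the whole array, which ran from 7.26 to 7.48, at r = 0.76 over 14 arrays. CXCL2 and CXCL3 lay below all of these medians and may be near background, where a change could not be seen. The 3 genes most like CXCL1 in pattern were KRTAP10-7, MEGF11 and CELF4, at r = 0.937, 0.937 and 0.932. The part of array scale in the CXCL1 values was not tested beyond the centred values given for its trend below.

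CCL2, the chemokine that draws monocytes, was high on a single array. It read 8.99 in primary replicate 1, the array with low TERT, and 6.07 in primary replicate 2. On the 12 arrays labelled hTERT it lay between 5.81 in B96 replicate 2 and 6.65 in A95 replicate 1. The same array had low IL6, at 7.59, and the lowest LIF. It had 8.80 for CDKN2A and 10.74 for MKI67.

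CXCL12, a chemokine made by fibroblasts that keeps stem cells and lymphocytes in place, ran another course. It read 10.15 and 9.53 in the primary pair, 9.35 and 8.36 at A39, 8.30 and 10.48 at A50, 10.45 and 10.63 at A58, 10.44 and 9.32 at A67, 9.31 and 6.67 at A95, and 6.85 and 7.68 at B96. It was highest from A50 replicate 2 to A67 replicate 1, on arrays that all had low IL6, at values of 10.44 to 10.63. It was lowest in A95 replicate 2 and B96 replicate 1, at 6.67 and 6.85, both with IL6 above 10. Within the 6 arrays with high IL6, r of IL6 and CXCL12 was -0.03 and rho 0.09 (exact permutation p = 0.963 and 0.919). Within the 8 with low IL6, r was -0.75 and rho -0.69 (exact permutation p = 0.0267 and 0.0694, adjusted p = 0.214 and 0.283), and r was -0.30 without the 2 arrays farthest from the median of IL6.

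The members did not form a single block. Of 45 pairs of members, 4 had a Pearson correlation above 0.5 over the 14 arrays and 2 below -0.5, and the median was -0.02. Of these 6 pairs 3 include IL6, whose coefficients rest on its separate levels. Among the 36 pairs without IL6, 2 were above 0.5 and 1 below -0.5, with a median of -0.04. All pairs share the same arrays, and the coefficients are descriptions. The genes most like IL6 were IFI44, FIBIN and EPSTI1 (r = 0.971, 0.956 and 0.95 over 14 arrays), values that rest on the separation of the IL6 levels. Those most like CXCL8 were IFI16, SNAI2 and IER3 (0.923, 0.901 and 0.898), and those most like CXCL12 were ANXA7, FABP4 and PRMT9 (0.965, 0.961 and 0.946). For CCL2 they were HEPH, SESN3 and MALL (0.944, 0.915 and 0.914), values that rest on 1 array, and for LIF RHOBTB3, FZD6 and EDEM2 (0.899, 0.886 and 0.882). IL1A was most like TSSK2, RNF114 and PAGE4 (0.854, 0.844 and 0.84), and IL1B most like CLMN, FAM186A and ZNF619 (0.816, 0.748 and 0.722). CXCL2 was most like DYRK1B, EME2 and SNAP91 (0.857, 0.806 and 0.799), and CXCL3 most like PRDM15, CALHM4 and DNAJC5G (0.912, 0.867 and 0.84), all over ranges of less than 1 log2.

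Members were then set against CDKN2A, whose value ran from 6.33 to 9.59. IL6 was high together with high CDKN2A on the A39 arrays and A50 replicate 1, with 9.25, 9.59 and 9.30 for CDKN2A. On A50 replicate 2 and A58 replicate 1 CDKN2A was as high, at 9.46 and 9.42, and IL6 read 6.97 and 6.77. On A95 replicate 2 and B96 replicate 1 CDKN2A was lower, at 7.84 and 7.79, and IL6 read 10.54 and 10.56. High CDKN2A thus went with either level of IL6, and IL6 above 10 occurred at CDKN2A from 7.79 to 9.59. CDKN2A also encodes p14ARF, and its single gene-level row does not tell the transcripts apart. The lowest CDKN2A values, 6.33 in A67 replicate 2 and 6.54 in A95 replicate 1, came with IL6 at 7.25 and 6.87. Within the 6 arrays with high IL6, r of IL6 and CDKN2A was 0.43 and rho 0.71 (exact permutation p = 0.303 and 0.136, adjusted 0.606 and 0.363). Within the 8 arrays with low IL6 both were 0.14 (exact permutation p = 0.741 and 0.752).

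In limma's fit of every row on the array's own CDKN2A value, 0 of 10 members passed an adjusted p of 0.05. The share was 7.21% of 28868 rows and 8.97% of 18376 genes. Without adjustment 0 members had p under 0.05, against 18.6% of rows and 4016 of the 18376 genes. The slope was 0.64 ± 0.43 log2 per log2 unit of CDKN2A for IL6 (SE, adjusted p = 0.498), 0.22 ± 0.17 for CXCL8 (adjusted p = 0.578), 0.15 ± 0.32 for CXCL12 and 0.05 ± 0.13 for LIF. It was -0.05 to 0.057 for the other 6. The permutation test of Pearson's correlation passed 0 members and 6.72% of rows, and 0 members and 5.77% without the 2 arrays farthest from the median. Without the 2 arrays with the lowest CDKN2A, LIF had r = 0.49 and rho = 0.77 over 12 arrays (permutation p = 0.104 and 0.00477, adjusted over all rows 0.303 and 0.0789), against r = 0.10 and rho = 0.46 over 14 (permutation p = 0.734 and 0.104, adjusted 0.912 and 0.379). CXCL1 had r = -0.62 and rho = -0.41 over those 12 arrays (permutation p = 0.0308 and 0.186, adjusted 0.164 and 0.496), against r = -0.30 and rho = -0.27 over 14 (permutation p = 0.293 and 0.348, adjusted 0.665 and 0.688).

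Against MKI67 the member with the smallest p in limma was LIF. MKI67 ran from 8.79 in A39 replicate 2 to 10.91 in A67 replicate 2. The slope of LIF on MKI67 was -0.43 ± 0.17 (SE), with an unadjusted p of 0.0205 and an adjusted p of 0.161. Pearson's r was -0.56 and rho -0.49 over 14 arrays (permutation p = 0.0354 and 0.0781, adjusted over all rows 0.225 and 0.30). Without the 2 arrays farthest from the median, A39 replicate 2 and A50 replicate 1, r was -0.49 and rho -0.315 (permutation p = 0.105 and 0.32). For IL6 the slope was -1.16 ± 0.61 (adjusted p = 0.364), and without those 2 arrays, which had the lowest MKI67 at 8.79 and 8.84 and IL6 at 11.06 and 11.08, it was -0.09 ± 0.99. Over 14 arrays IL6 had r = -0.44 and rho = -0.53 (permutation p = 0.117 and 0.0526, adjusted over all rows 0.452 and 0.238). Its p in the Spearman test was the smallest of the members. Without those 2 arrays r was -0.03 and rho -0.27 (permutation p = 0.937 and 0.403). The other 4 arrays with high IL6 had MKI67 between 10.13 and 10.55, inside the range of the arrays with low IL6, 9.40 to 10.91. Within the 6 arrays with high IL6, r of IL6 and MKI67 was -0.87 and rho -0.60 (exact permutation p = 0.0542 and 0.242, adjusted 0.217 and 0.483). That r was 0.66 without the 2 arrays farthest from the median of IL6, and the p-values for these 6 arrays carry the limit of paired arrays given above. Within the 8 arrays with low IL6 r was 0.03 (exact permutation p = 0.945).

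Limma passed 0 of 10 members for the slope on MKI67, against 6.46% of 28868 rows and 8.23% of 18376 genes. An unadjusted p under 0.05 was found in 1 of 10, LIF, against 17.9% of rows and 3949 of the 18376 genes. The permutation test of Pearson's correlation passed 0 members and 6.38% of rows, and 0 members and 3.39% without the 2 farthest arrays. The median slope was -0.023 for the members and -0.016 for all genes, and on CDKN2A 0.047 and -0.002. CDKN2A and MKI67 themselves were inversely related, with a slope of CDKN2A on MKI67 of -1.09 ± 0.26 (adjusted p = 0.0162). Of the 14 arrays 10 belong to a mutual closest pair, and if the arrays of a pair are not independent these p-values are too small.

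**Figure D4:**
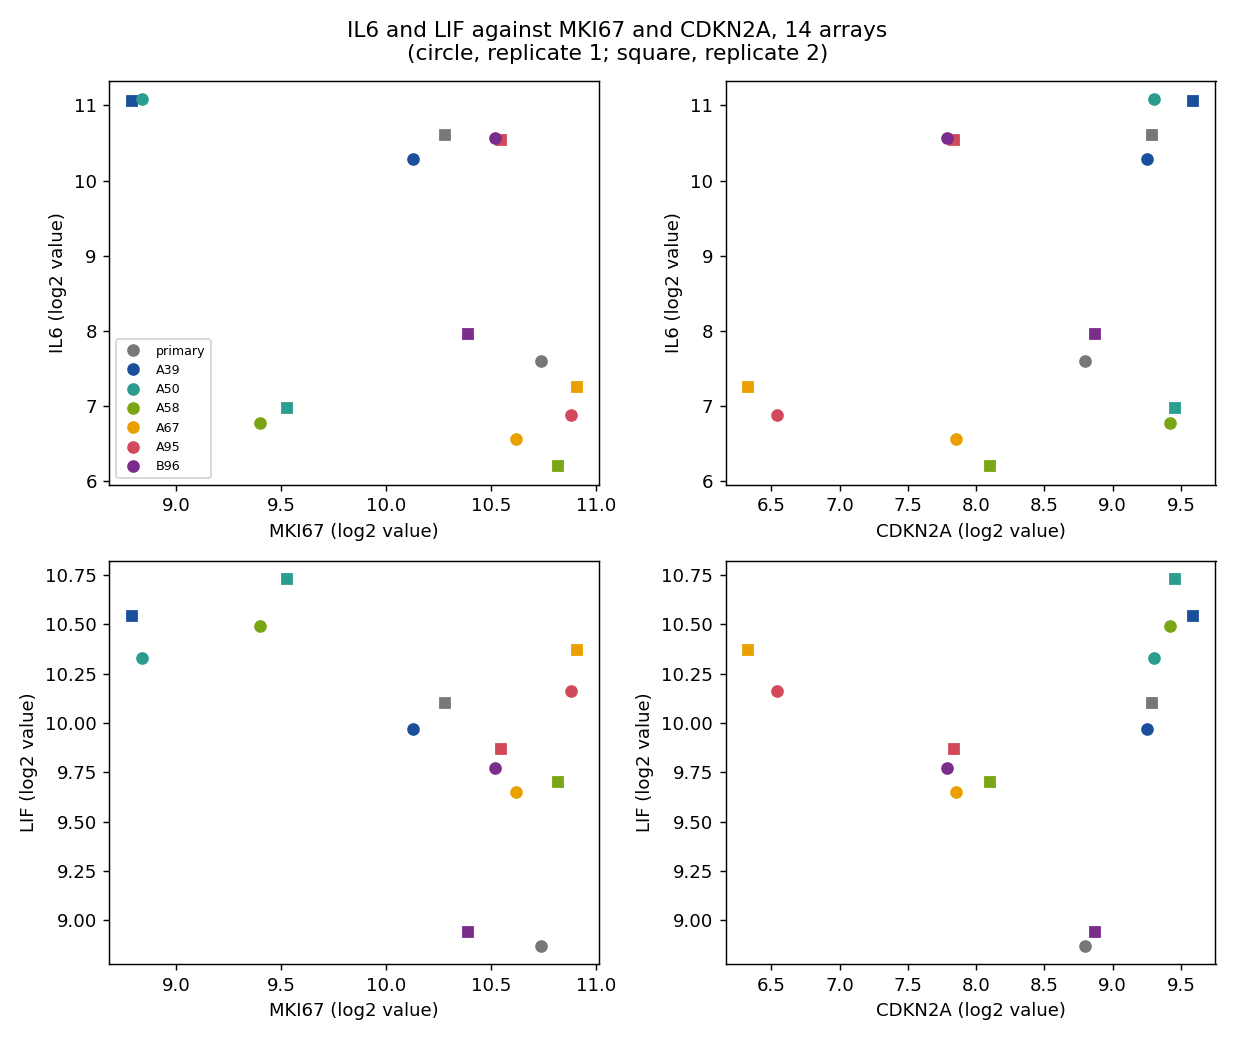
Log2 values of IL6 (upper panels) and LIF (lower panels) against MKI67 (left) and CDKN2A (right) on 14 arrays, coloured by labelled group, with circles for replicate 1 and squares for replicate 2. IL6 above 10 occurs at CDKN2A from 7.79 to 9.59, and LIF has a fitted slope of -0.43 on MKI67 that misses the adjusted threshold.

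Labelled groups were compared next, beginning with the earliest hTERT passage. IL6 averaged 10.68 ± 0.54 in A39 and 9.10 ± 2.14 in primary (SD, n = 2 each), the primary mean being that of an array with low and an array with high TERT. This is a log2 difference of 1.58 ± 1.52 (SE, limma adjusted p = 1.00). The difference was 0.065 without primary replicate 1 and 3.09 without primary replicate 2. CCL2 averaged 5.97 ± 0.09 in A39 and 7.53 ± 2.06 in primary, a difference of -1.57 ± 0.69 (unadjusted p = 0.046, adjusted p = 1.00). Without primary replicate 2, whose TERT lay in the hTERT range, CCL2 fell by 3.03 ± 0.34 in A39 with an adjusted p of 0.0331. That fit leaves 1 primary array, which is assumed to vary like the other groups. Without primary replicate 1 the difference was -0.105. The difference was 0.77 ± 0.45 for LIF, with 0.155 without primary replicate 1 and 1.39 without primary replicate 2, and 0.13 ± 0.56 for CXCL8. CXCL8 had -0.385 without primary replicate 1 and 0.645 without primary replicate 2, and CXCL12 -0.985 ± 0.86, with -0.49 without A39 replicate 2 and -1.48 without A39 replicate 1. Limma passed 0 of 10 members and 0.0% of 28869 rows, and 1 member, CCL2, against 1.2% of rows had an unadjusted p under 0.05.

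Along the A culture, A95 was compared with A39. IL6 read 6.87 and 10.54 in A95, against 10.29 and 11.06 in A39, a difference of -1.97 ± 1.52 (SE, adjusted p = 0.638) that was -3.81 without A95 replicate 2 and -0.135 without A95 replicate 1. CXCL8 read 6.39 and 7.02 in A95, against 7.94 and 7.61 in A39. Its difference was -1.07 ± 0.56 (adjusted p = 0.562). CXCL12 differed by -0.87 ± 0.86, by 0.455 without A95 replicate 2 and by -2.19 without A95 replicate 1. The difference was -0.24 ± 0.45 for LIF, from -0.525 without A39 replicate 1 to 0.045 without A39 replicate 2. It was 0.475 ± 0.69 for CCL2, with 0.265 without A95 replicate 1. Limma passed 0 of 10 members and 0.0% of rows, and 0 members against 9.21% of rows had an unadjusted p under 0.05. CDKN2A differed by -2.23 ± 0.61 and MKI67 by 1.26 ± 0.49 in this comparison (adjusted p = 0.528 for both).

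The late cultures B96 and A95 each held 1 array with high and 1 with low IL6. IL6 read 10.56 and 7.96 in B96, against 6.87 and 10.54 in A95, a difference of 0.555 ± 1.52 that ranged from -1.28 without A95 replicate 1 to 2.39 without A95 replicate 2. CXCL12 read 6.85 and 7.68 in B96, against 9.31 and 6.67 in A95, a difference of -0.73 ± 0.86 that ranged from -2.05 without A95 replicate 2 to 0.595 without A95 replicate 1. LIF differed by -0.66 ± 0.45, CCL2 by -0.33 ± 0.69 and CXCL8 by 0.22 ± 0.56. Without B96 replicate 1 these were -1.08, -0.63 and -0.455, and without B96 replicate 2 they were -0.245, -0.03 and 0.895. Every member had a limma adjusted p of 1.00. Limma passed 0 of 10 members and 0.0% of rows, and 0 members against 2.28% of rows had an unadjusted p under 0.05. In the F test over the 7 groups limma again passed 0 members and 0.0% of rows, and 1 member, CXCL12, against 4.62% of rows had an unadjusted p under 0.05. The adjusted p of CXCL12 from limma was 0.943.

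When passage was a numeric term in a fit of the 10 A arrays, 0 of 10 members passed limma's trend, against 0.281% of 28869 rows. The slope per 10 passages was -0.275 ± 0.30 for IL6 (SE, adjusted p = 0.642), -0.20 ± 0.18 for CXCL12, -0.15 ± 0.10 for CXCL8, -0.066 ± 0.055 for LIF and 0.059 ± 0.041 for CCL2. CXCL1 had 0.064 ± 0.028 (unadjusted p = 0.044, adjusted p = 0.254), against 0.052 ± 0.023 with arrays centred on their medians and 0.006 over passages 39 to 67, and was the 1 member against 18.7% of rows with an unadjusted p under 0.05. CXCL12 had a slope of 0.46 over passages 39 to 67 and of 0.11 without A95 replicate 2. IL6 had -0.755 without A95 replicate 2. IL6 was high at passage 39, low from A50 replicate 2 to A95 replicate 1 and high again in A95 replicate 2.

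Receptors, regulators and other secreted factors were read from 3 lists, beside a list of growth arrest and cycling genes. Of 14 receptors and decoys, IL6R, the ligand-binding chain of the interleukin-6 receptor, fell with MKI67 at a slope of -0.28 ± 0.06 (adjusted p = 0.00834, and 0.0611 without A39 replicate 2). IL1R1, the signalling receptor of interleukin-1, and LIFR, the receptor of LIF, rose with CDKN2A at slopes of 0.36 ± 0.078 and 0.29 ± 0.059 (adjusted p = 0.0105 and 0.00754, and 0.0804 and 0.0523 without A95 replicate 1). Thus 1 of 14 passed on MKI67 and 2 of 14 on CDKN2A, against 8.23% and 8.97% of all 18376 genes. IL6R ran from 7.71 to 8.47, IL1R1 from 7.48 to 9.03 and LIFR from 8.12 to 9.35.

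Of 25 measured regulators of NF-kB, interleukin-1 signalling and C/EBP, 4 fell and 1 rose with MKI67, against 3.25% and 4.98% of all genes. STAT3, which carries the signal of IL6 and LIF, had -0.41 ± 0.092 (adjusted p = 0.0132, and 0.0512 without A39 replicate 2), and CEBPB, a direct activator of IL6, had -0.385 ± 0.088 (adjusted p = 0.0138, and 0.0604 without A39 replicate 2 or 0.0513 without A50 replicate 1). ZFP36, whose protein destabilizes cytokine messages, had -0.46 ± 0.13 (adjusted p = 0.0382). That call was lost with any of 7 arrays left out, at slopes of -0.35 to -0.52 and adjusted p from 0.0503 to 0.264. It was also lost with arrays centred on their medians (-0.409, adjusted p = 0.101) and with the A arrays alone (-0.363, adjusted p = 0.0553). The remaining gene that fell, CEBPD, had -0.36 ± 0.10 (adjusted p = 0.045), and its alternatives are not given here. CGAS, the cytosolic DNA sensor, rose with MKI67 at 0.41 ± 0.095 (adjusted p = 0.0151). With CDKN2A, STAT3 rose at 0.31 ± 0.052 (adjusted p = 0.0022) and CGAS fell at -0.29 ± 0.062 (adjusted p = 0.0091, and 0.0599 without A67 replicate 2), which makes 1 rise and 1 fall among the 25, against 4.4% and 4.57% of all genes.

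Of 25 other secreted factors that were measured, INHBA, a subunit of activin, rose with MKI67 at 0.68 ± 0.14 (adjusted p = 0.00835, and 0.082 without A39 replicate 2 or 0.0696 without A50 replicate 1). None of the 25, a count of 0 in limma with 5 at an unadjusted p under 0.05, passed on CDKN2A. Of all 18376 genes, 4016 had an unadjusted p under 0.05 there. Of the 9 arrest and cycling genes other than MKI67, 4 rose and 2 fell with it, against 4.98% and 3.25% of all genes. That list was made of genes known to follow cycling or arrest, so its counts support nothing. Among those that rose was LMNB1, a lamin lost in senescence, at 0.87 ± 0.11 (adjusted p = 0.00012). CDKN1A, which encodes p21, rose with CDKN2A at 0.37 ± 0.055 (adjusted p = 0.000914). The list genes chosen for naming, CEBPD not among them, had 18 called slopes over both predictors. In fits within labelled groups 18 of 18 calls were lost. All 18 slopes kept their sign, and 17 were within 1.5 times of the slope over all arrays. They were picked because they were called on these same arrays, so that likeness supports nothing. In those fits CGAS had 0.41 ± 0.18 and CEBPB -0.41 ± 0.16 on MKI67, and the exception, LIFR, 0.15 ± 0.13 on CDKN2A. With MKI67 and CDKN2A in 1 fit 14 were lost, and without the 2 arrays farthest from the median 10 were lost. In the contrasts and the trend no gene of the 4 lists passed, a count of 0 in limma with between 0 and 7 genes per list at an unadjusted p under 0.05. The share of all rows at that p was 1.2% for A39 versus primary, 9.21% for A95 versus A39 and 2.28% for B96 versus A95. It was 18.7% for the trend.

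**Figure D5:**
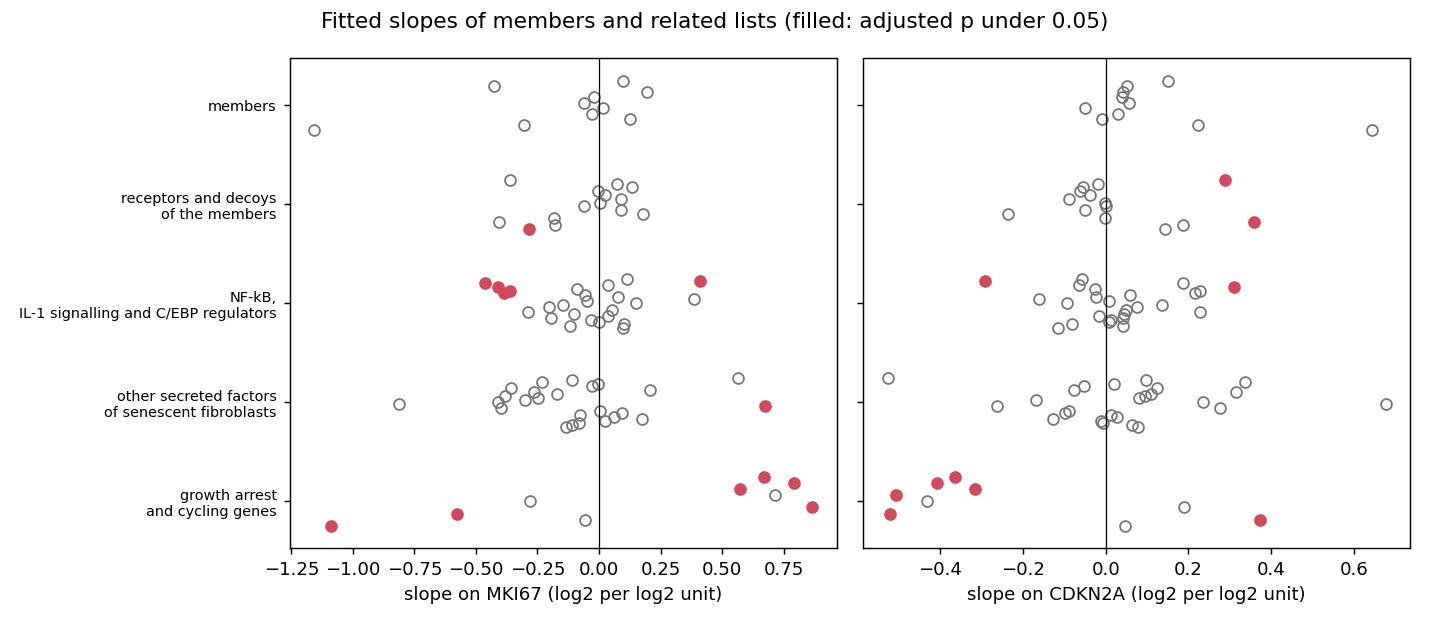
Fitted slope in log2 per log2 unit of MKI67 (left) and of CDKN2A (right) for the members and 4 related lists (rows), 1 circle per gene, filled where the adjusted p over all rows is under 0.05. No member is filled, while STAT3 and CGAS are filled in both panels with opposite signs.

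IL6-AS1, an antisense gene beside IL6 on chromosome 7 that was singled out after its values were seen, had a row of its own. It read 7.42 to 8.15 on the 6 arrays with high IL6 and 6.39 to 7.24 on the other 8. Whether its probes can also catch IL6 message was not tested, so its row is uncertain as a separate reading.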

How the data were processed

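RNA of 14 WI-38 samples, biological duplicates isolated using TRI reagent, was labelled as whole-transcript sense target and hybridised to Affymetrix human Gene ST arrays, per the labels' protocols. Nothing says whether duplicates came from separate cultures, so p-values measure the spread between these arrays. The log2 values are those the authors deposited, for 28869 rows, and the base of the log was inferred from their span. The sources used here do not name the background correction or normalization. Medians of the arrays lay between 7.26 and 7.48. No detection calls were used, and the number of arrays limits the precision.

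Gene symbols came from the platform annotation and were brought up to date with RefSeq gene IDs. One symbol was found for 19310 rows (19279 matched), several for 1752 and none for 7807. The row with the highest mean stood for its gene. Values were used as deposited. Group means, the trend and slopes on MKI67 or CDKN2A were fitted over all rows with limma 3.58.1 in R 4.3.3 (lmFit, eBayes), two-sided, with Benjamini-Hochberg adjustment over all rows and a threshold of 0.05. The rows of MKI67 and CDKN2A were left out as outcomes of their own slopes. Two-sided permutation tests of Pearson and Spearman correlations used 100000 resamples, and those within 8 or fewer arrays were exact. The fits were also run on simulated data with independent noise on each array. Such data lack the likeness of arrays across labels, so they cannot show how the fits fare here. Groups follow the labels.

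The members and lists were chosen with earlier results of these data known. The text names the 10 members, TERT, CDKN2A, MKI67, the 3 genes most correlated with a member, and up to 4 genes per list past the threshold of a fit. CEBPD and genes singled out from their values are named beside these. Some list genes, HMGB1, CSF2, AREG, IRAK4 and MAPK14 among them, are not analysed here. Alternatives were quantile normalization, centring, removal of rows with means under the 30th percentile, a replicate block, an intensity trend with a robust prior, leave-one-out fits, fits on the compared groups alone, and other sets of arrays or predictors. Replicate numbers did not pair the arrays: of 21 pairs of groups, 4 had a correlation of deviations above 0.1.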

Additional observations from a re-analysis of the deposited data

How the results depend on the processing

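Alternatives were computed for 31 results of IL6, CXCL8, CXCL12, CCL2, LIF and CXCL1. Of their 626 values 1 passed the adjusted threshold, CCL2 in A39 versus primary without primary replicate 2. Limits are the 2 arrays per label, the similarity of arrays across labels and the unknown background of dim rows. The cause of the changes below was not tested.

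Rows called by limma moved in several fits. With an array left out the counts ranged from 0 to 6 for A39 versus primary (6 without primary replicate 2), 0 to 4 for A95 versus A39 (4 without A95 replicate 1), 0 to 3 for B96 versus A95 (3 without B96 replicate 2), 0 to 571 for the trend, 1114 to 2195 for the slope on MKI67 and 1175 to 2313 for that on CDKN2A. A95 versus A39 gave 2 in the fit on these groups alone. The trend, 81 rows, gave 159 with quantile normalization, 429 with centring, 271 with the filter, 132 with the robust prior, 0 over passages 39 to 67 and 489 on ranks of passage. The slope on MKI67, 1864 rows, gave 233 with CDKN2A in the fit, 978 without the 2 farthest arrays and 28 within groups. The slope on CDKN2A, 2082 rows, gave 127 with MKI67 in the fit and 0 within groups. With the replicate number as a block the trend called 74 rows, the slopes 1668 and 1883, and no call of a member changed.

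The sign of 10 of 216 member values turned under alternatives that keep all arrays or use another set of them. On MKI67 without the 2 farthest arrays, the slope was 0.047 for CXCL8 and -0.656 for CXCL12, and with the A arrays alone -0.029 for CCL2. On CDKN2A within groups it was -0.202 for CXCL8, -0.187 for CXCL12, -0.163 for CCL2 and -0.064 for LIF. It was -0.032 for CCL2 without the 2 farthest arrays and -0.365 for LIF with MKI67 in the fit. The CXCL12 trend was 0.46 over passages 39 to 67.

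With 1 array left out the sign turned in 17 of 410 values. The ranges were -1.28 to 2.39 for IL6, -0.455 to 0.895 for CXCL8 and -2.045 to 0.595 for CXCL12 in B96 versus A95, -0.385 to 0.645 for CXCL8 in A39 versus primary, and -2.185 to 0.455 for CXCL12 and -0.525 to 0.045 for LIF in A95 versus A39. They were -0.32 to 0.109 for the CXCL12 trend, -0.093 to 0.283 for CXCL12 and -0.036 to 0.279 for CCL2 on MKI67, and -0.064 to 0.103 for CCL2 and -0.003 to 0.169 for LIF on CDKN2A.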

Other observations

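Several genes of the lists, singled out after their values were seen, had array patterns of their own beside IL6. PTGS2, the inducible cyclooxygenase of prostaglandin synthesis, read 10.07 to 10.89 on the 6 arrays from A50 replicate 2 to A95 replicate 1, all with low IL6, and 7.37 to 8.85 on the other 8. HGF, a growth factor that fibroblasts secrete for epithelial cells, read 11.24 to 11.78 in primary replicate 2, both A39 arrays, A50 replicate 1 and B96 replicate 2, and 8.22 to 9.68 on the other 9. These arrays include 4 with high IL6 and 1 with low IL6.

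A95 replicate 2 and B96 replicate 1, the late pair with high IL6, stood apart over the whole table. They differed from the other array of their label by at least 1 log2 in 2748 and 2765 rows, their highest values were 13.97 and 13.98 against 14.15 or more on the other arrays, and 4 and 3 rows were at 0 against 12 to 20. Both lay above all other arrays in 14.6% and below them in 12.7% of 18377 genes. Of the 25 regulators, 10 lay above and 0 below, which is a description with no test. IRAK3, an inhibitory kinase-like protein of interleukin-1 signalling, read 8.29 and 8.34 there and 5.40 to 6.47 on the other 12 arrays. TNFAIP3, the NF-kB inhibitor A20, read 8.28 and 7.97 there and 6.69 to 7.69 elsewhere. The NF-kB subunits NFKB1, RELA and RELB were above as well, as were IRAK2, TRAF6, STING1, SOCS3 and NFKBIE. NFKB1 read 10.29 and 10.24 there and at most 9.79 elsewhere, and RELB 8.45 and 8.49 against at most 8.44. REL, the NF-kB subunit NFKB2, NFKBIA and NFKBIB were among the 15 regulators that did not stand apart.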
